A study of Mus musculus with 3 samples.

Results

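The nuclei described here were recognised by 3 genes: Ebf1, a transcription factor of the COE family, Prdm6, a chromatin regulator with a PR domain, and Pde11a, a phosphodiesterase that degrades cyclic AMP and cyclic GMP. They come from a single-nucleus RNA sequencing study of brain neurons in uninjured C57BL/6 mice, traced back from the lumbar cord, microdissected under fluorescence and sorted as nuclei. The 3 libraries are biological replicates 1, 2 and 3 of 1 group, with no treated or control group. Neither the age of the mice, the label used nor the number of animals behind each library is given in the sources used here, so p-values measure only the spread between these libraries, which may be technical. Barcodes were kept if they had 1000 genes or more and no more than 5% of their unique molecular identifiers (UMIs) from mitochondrial genes, and levels are given as UMIs per 1000000 UMIs (CPM). Members were chosen by their levels of the 3 genes: a nucleus was a member when Ebf1 was at 800 CPM or more and Prdm6 and Pde11a together had at least 2 UMIs and at least 100 CPM. This held for 265 of the 9027 kept nuclei, with 50 of 2679 in replicate 1, 118 of 2769 in replicate 2 and 97 of 3579 in replicate 3.

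Neurons that reach the lumbar cord lie in the motor cortex, the hypothalamus, the red nucleus, the pons and the medullary reticular formation, among other sites. Pontine cell groups among them include Barrington's nucleus, the pontine micturition centre, which is known for glutamatergic neurons that make corticotropin-releasing hormone (Crh) and project to the lumbosacral cord. Position along the hindbrain is reflected in the Hox genes, which are expressed from the caudal pons and medulla into the cord, and neurons of the midbrain and isthmus lack most of them. EBF factors act in neurogenesis and neuronal identity, and Dach1, a transcriptional cofactor, and Spx, the gene of the neuropeptide spexin, were listed with the gate genes as markers of these nuclei.

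The gated nuclei made up 1.87%, 4.26% and 2.71% of the kept nuclei in replicates 1, 2 and 3. Exact 95% binomial intervals, which cover counting error only, were 1.39% to 2.45%, 3.54% to 5.08% and 2.20% to 3.30%. The mean over the libraries was 2.95% ± 1.21 (SD, n = 3). The share was highest in the deepest library: members had a median of 8076 UMIs in replicate 1, 16947 in replicate 2 and 11854 in replicate 3, and the part of this depth in the order of the shares was not tested. Of the nuclei with Ebf1 at 800 CPM or more, 30.1%, 69.0% and 45.5% were members in replicates 1, 2 and 3, and the Ebf1-high nuclei left outside had lower median depths of 5219, 9174 and 8951 UMIs. The raised limits of 1600 CPM for Ebf1, or of 4 UMIs and 200 CPM for the pair, lowered the mean share to 1.73% and 1.62%.

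Ebf1 averaged 1993, 1627 and 1987 CPM in the members of the 3 libraries, and the gate set its lower end. The lowest Ebf1 level among members was 815, 812 and 809 CPM, and the highest among nuclei that passed on Prdm6 and Pde11a but not on Ebf1 was 779, 788 and 779 CPM. Prdm6 stood at 214, 102 and 152 CPM and Pde11a at 235, 212 and 211 CPM. Ebf1 overlaps Gm12158 on the other strand, so reads of the latter could be counted with it where strand was not used. Both genes of the pair had a UMI in 174 members, Prdm6 alone in 38 and Pde11a alone in 53. There were 219 nuclei with enough Prdm6 and Pde11a but too little Ebf1, and 285 with enough Ebf1 but too little of the pair. These levels chose the nuclei and are given with no test.

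**Figure D1:**
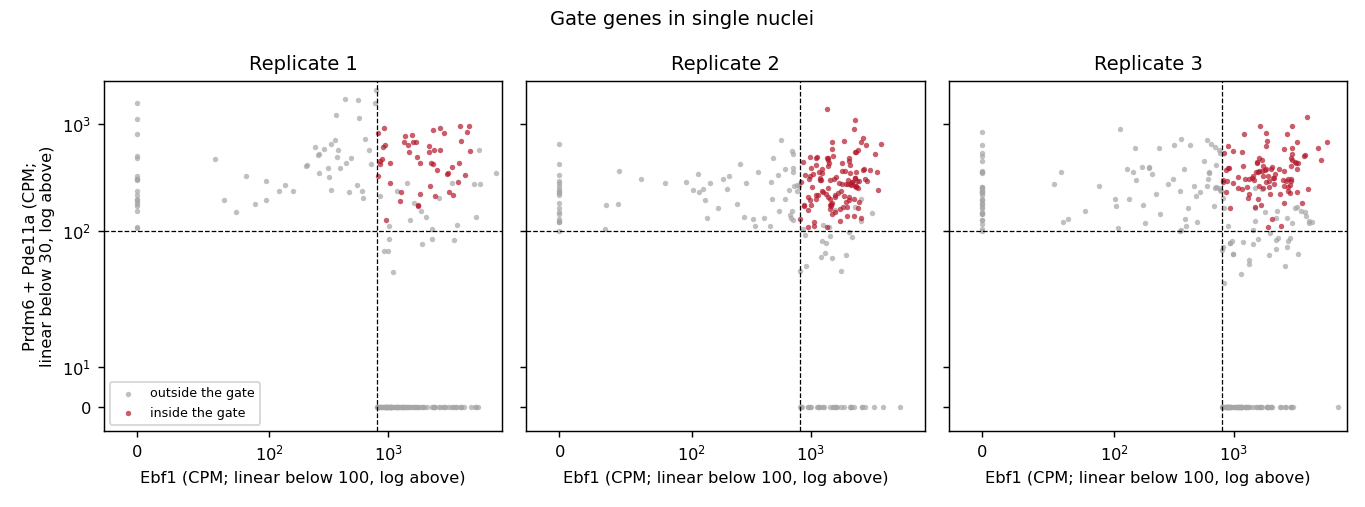
Ebf1 (x axis) against the sum of Prdm6 and Pde11a (y axis) in single nuclei, in CPM, for the nuclei of each library that met at least 1 of the 2 limits. Dashed lines mark 800 and 100 CPM, grey points above both lines had a single UMI of the pair, and the 265 gated nuclei are in red.

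The 3 libraries held 2710 to 11094 barcodes and 27435221 to 74287112 UMIs. The gated nuclei as a whole held 475641, 2361698 and 1300533 UMIs in replicates 1, 2 and 3, so replicate 1 measures weakly expressed genes with the least precision. Between 2 and 10 barcodes were shared by each pair of libraries. Of these, 1 to 3 were kept in both libraries of a pair, and none of those was a member. A doublet caller marked 2 of the 265 members against 0.560% to 2.13% of all kept nuclei, and 1 member in replicate 2 also passed the cortical limit used here. Each of 10 general neuronal genes was detected in the members at 5 CPM or more in every library, and Snap25, a synaptic membrane protein, stood at 689 ± 48.8 CPM against 720 ± 75.3 CPM in other non-cortical nuclei. Of markers of vessels, fibroblasts and glia, Cldn5 and Kcnj8 had no UMI in any member, and the fibroblast list summed to 6.31, 0.847 and 5.38 CPM. The summed microglial list stood at 128 to 165 CPM in members and at 103 to 137 CPM in other non-cortical nuclei, and its defining genes C1qb and Tmem119 had no UMI in any member.

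When all kept nuclei were clustered with the 3 gate genes left out, the members stayed together. Of 26 clusters, 1 took 250 of the 265 members, which was 90.0%, 96.6% and 93.8% of those in replicates 1, 2 and 3. It held 471 nuclei, so 53.1% of it were members, and the other 221 nuclei did not meet the gate. At least 1 UMI of Prdm6 or Pde11a was found in 138 of these 221, and their median depth was 9654 UMIs against 13089 for the members beside them. In genes outside the gate they were like the members in some and not in others. Spx stood at 162 ± 67.9 CPM against 192 ± 38.9 CPM in members, and Shroom4 at 60.1 ± 15.0 CPM against 60.9 ± 12.1 CPM (SD, n = 3). Crh was at 69.9 ± 29.3 CPM against 38.1 ± 9.61 CPM in members, Tshz2 at 52.3 against 16.4 CPM and Arhgap36 at 35.5 against 20.3 CPM, while Svep1 was at 36.4 against 62.4 CPM and Erbb4 at 574 against 1107 CPM. Their Ebf1 level was lower than in members, at 1389 against 1869 CPM on average. The cluster was formed from these genes, so their levels are no test of it. Of the 285 Ebf1-high nuclei outside the gate, 44.9% lay in this cluster. The profile of the next most similar cluster (r = 0.959 with the members, across 12819 genes, which are not independent) carried Lhx4 at 45.8 CPM, Zfhx3 at 834 CPM and Hoxd3 at 20.3 CPM.

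Among tested genes at more than 100 CPM in members, which leave out the 3 gate genes, Spx had the highest fold over other non-cortical nuclei. Its summed level was 147, 217 and 212 CPM in the members of replicates 1, 2 and 3. In other non-cortical nuclei, meaning all kept nuclei with Nfib and Tox together under 800 CPM and outside the gate, it was 10.2 to 17.1 CPM. In the cortical nuclei above that limit it was 6.58 to 7.84 CPM. No library of the members overlapped with the others, and the fitted difference from other non-cortical nuclei was 3.96 ± 0.12 (SE) on the log2 scale. Since Spx had been listed as a marker of these nuclei from the same libraries, this value is a description. Spx lies on chromosome 6 (142413441 to 142419730, plus strand, GENCODE vM21 on GRCm38). The 250 bases before its first RefSeq start site (GRCm38.p6, chr6:142413138-142413387, plus strand) are shown because this promoter held the core of the EBF recognition sequence, CCCNNGGG, marked in capitals:
Spx: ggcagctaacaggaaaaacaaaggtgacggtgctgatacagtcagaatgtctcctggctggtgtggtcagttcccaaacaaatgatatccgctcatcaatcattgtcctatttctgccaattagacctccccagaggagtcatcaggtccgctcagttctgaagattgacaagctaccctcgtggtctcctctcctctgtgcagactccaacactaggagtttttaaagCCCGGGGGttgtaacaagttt
The match began 21 bases before the start site. The motif is its own reverse complement, so the search covers both strands, and a match is no evidence of binding. Across all 32851 RefSeq windows of this length 11.8% held the motif. Of the 12 genes named below as higher than in other non-cortical nuclei, 10 were in the promoter table, which lacked Crh and Adam12, and 2 of the 10, Spx and Hs3st4, held it.

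Dach1, the other listed marker, was more even. It was at 1100, 857 and 974 CPM in the members against 246, 220 and 221 CPM in other non-cortical nuclei and under 10.4 CPM in cortical nuclei. The groups did not overlap, and the fitted difference was 2.15 ± 0.11 on the log2 scale, again as a description. Dach1 was not confined to these nuclei. Outside the members' own cluster its pooled level ranged from 0 to 508 CPM, except for 794 CPM in a cluster of 34 ungated nuclei with Tph2 at 1675 CPM.

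Both comparisons below use genes that the gate did not use. The gate genes themselves had been found by comparing cells of these libraries, so the p-values below are no independent evidence that the population exists. UMIs were summed per library and compared with edgeR's quasi-likelihood test with the library as a block, and a gene was called at an adjusted p under 0.05 and a log2 fold change of at least 1 in size. Against other non-cortical nuclei, 190 of 19042 genes were called higher, a background of 0.998%, and 841 were called lower, a background of 4.42%, or 5.41% in either direction. Against all other kept nuclei, 834 of 17820 genes were called higher (4.68%) and 1541 lower (8.65%), or 13.3% in either direction. Without replicate 2 the 834 became 503, and without replicate 3 the 841 became 501. Without the library block the 841 became 424. With the Nfib and Tox limit lowered to 400 CPM, 480 genes were lower.

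The 12 leading genes higher than in other non-cortical nuclei, by the rule of at least 20 CPM and the same direction in 3 of 3 libraries, were Spx, Svep1, Shroom4, Asb4, Irx2, Lhx9, Crh, Epha3, Adam12, Hs3st4, Stk32b and Dach1. Svep1, a large extracellular adhesion protein, was at 46.3, 55.5 and 85.3 CPM in members against 6.88, 4.97 and 6.73 CPM (log2 fold change 3.44 ± 0.29, adjusted p = 3.1e-07). Shroom4, an actin-binding protein, was at 60.9 ± 12.1 CPM against 6.95 ± 0.279 CPM (3.17 ± 0.20, adjusted p = 5.5e-09). Asb4, a substrate receptor of a ubiquitin ligase, was at 31.6 ± 6.22 CPM against 3.86 ± 0.519 CPM (3.01 ± 0.28). For these 3 genes every library of the members lay above every library of the other non-cortical nuclei.

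Transcription factors of positional identity were among the same 12. Lhx9, a LIM homeodomain factor of dorsal midbrain, isthmic and diencephalic neurons, was at 33.6, 35.1 and 26.9 CPM in members against 5.76, 6.46 and 2.74 CPM (log2 fold change 2.78 ± 0.27, adjusted p = 1.2e-06). In cortical nuclei it was at 0.155 ± 0.104 CPM. Irx2, an Iroquois homeodomain factor, was uneven: it stood at 4.20 CPM in replicate 1 and at 29.6 and 26.9 CPM in replicates 2 and 3, against 1.12, 4.09 and 3.26 CPM (2.94 ± 0.35, adjusted p = 1.8e-05). The member level of replicate 1 was close to the 4.09 CPM of the other nuclei of replicate 2.

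Crh was at 29.4, 36.4 and 48.4 CPM in members against 4.00, 6.13 and 8.17 CPM in other non-cortical nuclei and 1.68 ± 0.869 CPM in cortical nuclei. The log2 fold change was 2.65 ± 0.22 (adjusted p = 2.1e-07), and the groups did not overlap. The Crh gene lies on chromosome 3 (19693401 to 19695396, minus strand) and overlaps no other counted gene.

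Epha3, an ephrin receptor of axon guidance, was at 252, 207 and 293 CPM against 44.6, 42.2 and 44.1 CPM (2.57 ± 0.10, adjusted p = 2.6e-11). Hs3st4, a heparan sulfate sulfotransferase, was at 1680 ± 210.4 CPM against 346 ± 9.58 CPM (2.33 ± 0.09). It overlaps 2 other counted genes, and Adam12 overlaps 1, A130023I24Rik, so reads could be shared where strand was not used. Adam12, a membrane metalloprotease, was at 46.6 ± 17.2 CPM against 9.64 ± 1.23 CPM and Stk32b, a kinase, at 70.4 ± 11.4 CPM against 15.0 ± 2.03 CPM. All of these levels are per UMI and not per transcript length, so they are compared between groups and not between genes.

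**Figure D2:**
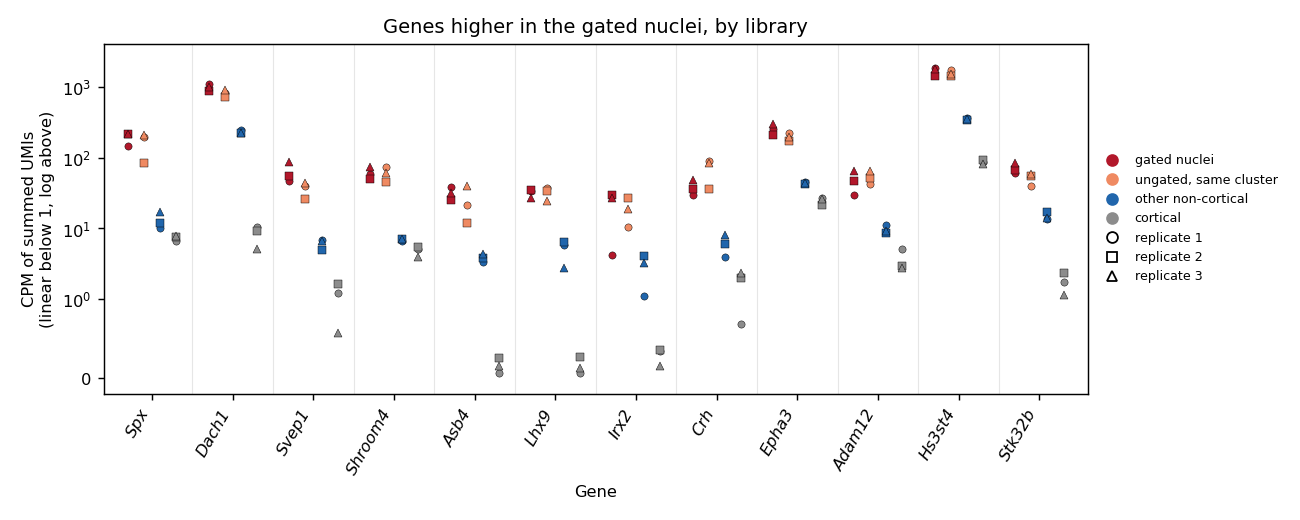
Levels of the 12 named genes (x axis) in CPM of UMIs summed per library (y axis, linear below 1 and logarithmic above), with 1 symbol per replicate and 1 colour per group of nuclei. Nuclei of the same cluster outside the gate lie above the other non-cortical nuclei, and the Irx2 value of members of replicate 1, at 4.20 CPM, is close to that of other non-cortical nuclei.

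The 8 genes named as lower than in other non-cortical nuclei were Lhx4, Adarb2, A4gnt, Adamts3, Tshz2, Lypd6, Slc44a4 and Hist2h2be. Adarb2, a catalytically inactive relative of RNA-editing enzymes, was at 8.41, 17.4 and 7.69 CPM in members against 419, 312 and 380 CPM (log2 fold change -4.69 ± 0.19, adjusted p = 3.6e-11). Tshz2, a zinc-finger homeodomain factor, was at 16.4 ± 3.02 CPM against 226 ± 13.2 CPM (-3.63 ± 0.15). Lhx4, a LIM homeodomain factor of ventral hindbrain and spinal interneurons and of motor neurons, had 3 UMIs in all members against 23.6 ± 3.07 CPM elsewhere, 33.1 times as much (95% counting interval 11.3 to 161). For Adarb2 and Tshz2 the groups lay far apart in every library. A4gnt, Slc44a4 and Hist2h2be were uneven among the other non-cortical nuclei, where Hist2h2be ranged from 2.76 CPM in replicate 2 to 58.1 CPM in replicate 1, and Hist2h2be lost its call without replicate 1. Without the library block the calls of A4gnt and Hist2h2be were lost, at adjusted p = 0.094 and 0.17. The rest were even: Adamts3 stood at 2.86 ± 0.670 CPM against 43.0 ± 5.94 CPM and Lypd6 at 2.15 ± 0.904 CPM against 27.6 ± 8.54 CPM.

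Compared with all other kept nuclei, 9 of the 12 leading genes were shared with the first comparison. Svep1, Asb4, Spx, Irx2, Lhx9, Crh, Dach1, Stk32b and Shroom4 were the shared ones, joined by Arhgap36, Plpp4 and Zfp521. Zfp521, a zinc-finger factor, was at 313 ± 20.3 CPM in members against 86.8 ± 3.24 CPM in other non-cortical and 2.55 CPM in cortical nuclei. The 6 lowest were Rxfp1, Pdlim1, Dscaml1, Tox, Nfib and Slit3. Rxfp1, the relaxin receptor, was at 5.34 ± 1.62 CPM in members against 153 ± 60.1 CPM in cortical nuclei, and Slit3, a guidance ligand, at 47.7 ± 28.7 CPM against 1115 ± 126 CPM. All 10 corticospinal markers were lower than in all other nuclei, with a median log2 fold change of -3.80 against -0.03 over all genes tested. Nfib and Tox summed to the limit that defines the cortical nuclei, so their difference there is set by the grouping.

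Of the region lists used here, that of Barrington's nucleus was the only 1 with every gene at 5 CPM or more in each library of the gated nuclei. Its 4 genes were Crh, Nr4a2, Esr1 and Slc17a6, and 3 of 4 were called higher than in other non-cortical nuclei, with a median log2 fold change of 1.36 against -0.07 over all genes. The lists were chosen with earlier results of these data known, so these counts are a description and no independent support for a region. Nr4a2, an orphan nuclear receptor, was at 14.7, 38.5 and 33.8 CPM against 10.4 ± 2.60 CPM (1.60 ± 0.20, adjusted p = 2.6e-05), and each member library was above all others. Esr1, the oestrogen receptor alpha, was at 37.8, 51.7 and 48.4 CPM against 25.4, 20.4 and 24.5 CPM (1.11 ± 0.15, adjusted p = 6.3e-05). Its log2 fold change lay close to the limit of 1, and it was 0.93 without replicate 2, 0.86 where Prdm6 and Pde11a each had a UMI and 0.99 with 4 UMIs and 200 CPM of the pair. Slc17a6, the vesicular glutamate transporter of subcortical neurons, was at 82.0, 102 and 129 CPM against 96.4, 93.5 and 106 CPM and did not differ by the test (0.17 ± 0.10, adjusted p = 0.35). The list is short, and its genes are also expressed in other brain regions. Nr4a2 was at 40.1 CPM pooled in a cluster led by Pard3b. Esr1 was at 82.4 CPM in a cluster with Tfap2a among its leading genes and at 54.8 CPM in that with Dbh at 232 CPM. Outside the members' own cluster Crh was at 14.1 CPM or less, except for 25.0 and 39.0 CPM in clusters with median depths of 2739 and 1625 UMIs.

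The list for the cuneiform nucleus and isthmus was carried in part. Of its 8 genes, 3 were at 5 CPM or more in each library, namely Lhx2, Lhx9 and Meis2, and 3 of 5 tested were higher, namely Evx2, Lhx9 and Lhx2. Lhx2, a relative of Lhx9, was at 12.6, 5.93 and 6.92 CPM against 2.90 ± 0.126 CPM (1.43 ± 0.36, adjusted p = 0.016). Evx2, a homeodomain factor of excitatory interneuron lineages, rested on 9 UMIs in all members (3.32 ± 0.81, adjusted p = 0.013). Both calls were lost without replicate 1 and without replicate 3, and that of Lhx2 also without the library block (adjusted p = 0.054), with Ebf1 at 1600 CPM or more, and where Prdm6 and Pde11a each had a UMI. Lhx9 and Lhx2 were not particular to the members. In the cluster with Hcrt at 2309 CPM they stood at 111 and 45.5 CPM pooled, with Evx2 at 0 CPM. Meis2, a homeodomain cofactor, was at 691 ± 52.5 CPM against 434 ± 25.2 CPM, a log2 fold change of 0.73 ± 0.07 that stayed under the limit for a call although its adjusted p was 6.9e-07. It was not particular to these nuclei: clusters with Hoxd3 at 20 CPM or more had pooled Meis2 levels from 75.1 to 824 CPM. Of the 8 genes, 3 averaged under 1 CPM in members, and Barhl1 had no UMI there. The midbrain list of 14 genes was mostly absent: 12 averaged under 1 CPM, and 6, among them Otx2, had no UMI. Otx2, Tal1, Foxd2 and Pou4f2 had too few counts to be tested, so their lack of UMIs does not set the members apart. In other non-cortical nuclei Tal1 was at 0.347 CPM and Pou4f2 at 0.716 CPM, under the 0.725 CPM that 3 counts would be in members. Only Meis2 was at 5 CPM or more in each library. Of 8 midbrain genes tested, 0 were higher and 3 were lower, Sox14, Nkx2-2 and Tfap2b. The median log2 fold change was -2.37, or -1.56 with genes without a UMI at the bound of 3 counts.

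Hox genes of the caudal hindbrain were close to absent. None of 18 reached 5 CPM, 9 of 18 had no UMI in any member, and the list summed to 0, 2.96 and 6.15 CPM in members against 40.9, 57.7 and 54.8 CPM in other non-cortical nuclei. Of 8 tested, 7 were called lower, and the median log2 fold change was -4.26, or -4.09 with genes without a UMI at the bound of 3 counts. Hoxd3 had 4 UMIs in all members against 14.5 ± 3.91 CPM elsewhere (-4.04 ± 0.49). Hoxb3 had 1 UMI, 34.6 times less than elsewhere (95% counting interval 6.18 to 1372), and Hoxc4 had 2 UMIs, a ratio of 20.4 (5.63 to 169). The markers of the V2a reticulospinal class were likewise lower, 5 of 5 tested, and Lhx3, a LIM homeodomain factor of that class, had 3 UMIs against 16.4 ± 1.35 CPM elsewhere.

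Lists for several other regions were carried in part, often by genes they share with the lists above. Of 6 cerebellar nuclear genes, Lhx9 and Meis2 were at 5 CPM or more in each library, and 1 of 4 tested was higher, Lhx9, which was also the only 1 of 7 tested called in the list for the lateral and other hypothalamus. Of 6 thalamic genes, Slc17a6 and Calb2 were at that level, and 1 of 5 tested was higher, Calb2, a calcium-binding protein, at 31.5, 14.0 and 13.1 CPM against 7.37 ± 2.27 CPM (1.17 ± 0.33, adjusted p = 0.030). That call was lost without replicate 1, without replicate 3, without the library block (adjusted p = 0.080) and under each stricter gate. Of 8 striatal genes, 2 of 5 tested were higher, Drd1 and Rgs9, a regulator of G-protein signalling, at 61.7 ± 9.75 CPM against 31.8 ± 4.85 CPM (1.10 ± 0.15). The log2 fold change of Rgs9 was 0.93 without replicate 2, 0.84 where Prdm6 and Pde11a each had a UMI and 0.86 with 4 UMIs and 200 CPM of the pair, where it was not called.

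No parabrachial or Kölliker-Fuse marker reached 5 CPM in each library. Of 7 tested, 1 was higher, Evx2, and 4 were lower, among them Foxp2, a forkhead factor of that region and others, at 5.95 ± 2.69 CPM against 62.0 ± 18.2 CPM (-3.28 ± 0.30, adjusted p = 6.4e-07). Lmx1b, called lower with 2 UMIs in the members, lost its call without replicate 2, without replicate 3 and with DESeq2. The red nucleus list summed to 0.769 to 4.20 CPM against 20.0 to 20.6 CPM. The list for the paraventricular hypothalamus shares Crh with that of Barrington's nucleus, and Crh was the 1 gene of its 7 tested called higher. Crh, Oxt and Pou3f2, a POU factor at 40.7 ± 7.30 CPM against 23.4 ± 2.80 CPM, were at 5 CPM or more in each library. Otp and Trh, of the same list, had no UMI, and Sim1, its defining factor, had 3 UMIs, a ratio of 12.8 (4.35 to 62.3). Hcrt, the orexin precursor of the lateral hypothalamus, was at 68.1 ± 47.2 CPM in members, but also at 48.9 CPM on average in cortical nuclei, which do not make it, and at 136 ± 58.4 CPM in other non-cortical nuclei. Oxt, the oxytocin gene, had the same level in members (8.26 ± 1.85 CPM) as in cortical nuclei (8.30 CPM). The mean of Hcrt in members lay above that in cortical nuclei, and whether the levels of either peptide in the members are background was not tested.

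Markers of monoamine and cholinergic neurons were mostly at or near 0, and none was called higher than in other non-cortical nuclei. Against all other kept nuclei, Th, of the noradrenergic list, and Nos1, of the cholinergic list, were called higher. Slc18a2, the vesicular monoamine transporter, was at 11.4 ± 2.18 CPM in members, against 19.9 ± 6.62 CPM in other non-cortical and 9.18 CPM in cortical nuclei. Nos1, a nitric oxide synthase in the cholinergic list, was at 8.68 ± 2.06 CPM against 8.76 ± 2.18 CPM. Dbh, the enzyme that makes noradrenaline, had 1 UMI in the members, and Phox2a, a homeodomain factor of noradrenergic neurons, had none. Tph2, the enzyme of serotonin synthesis in the brain, had no UMI in replicates 1 and 2 and stood at 18.5 CPM in replicate 3. Isl1 and Mnx1, motor neuron factors, had no UMI.

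**Figure D3:**
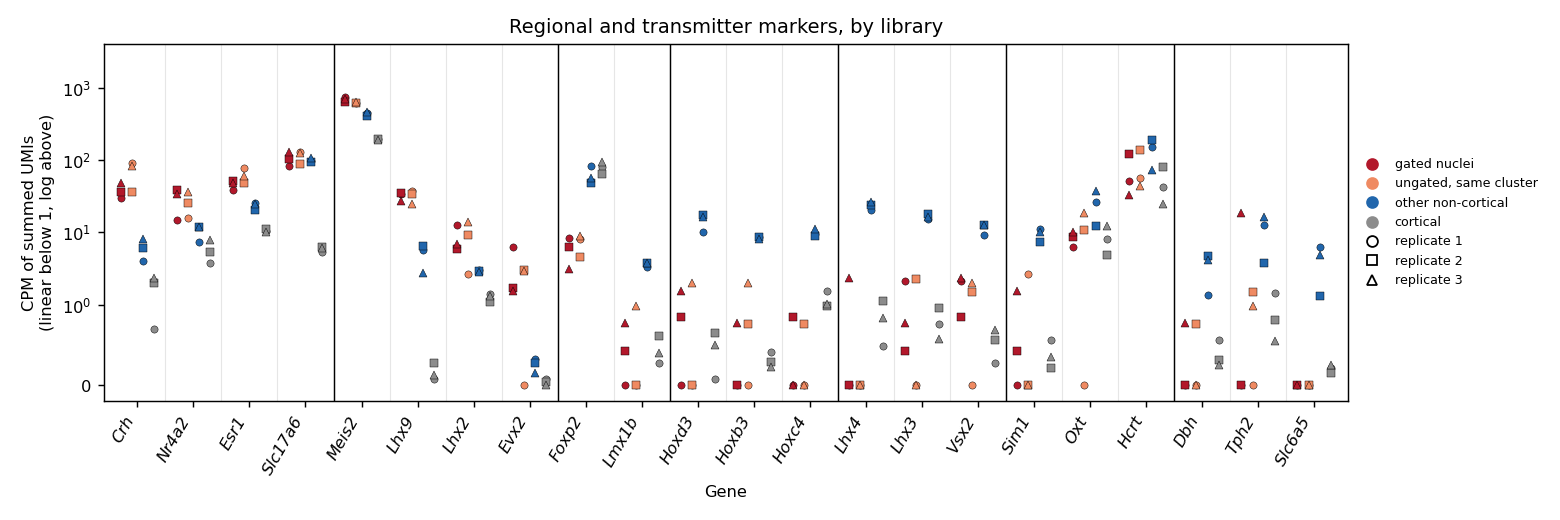
Levels of regional and transmitter markers (x axis) in CPM of UMIs summed per library (y axis, linear below 1 and logarithmic above), with 1 symbol per replicate and 1 colour per group; vertical lines separate, from the left, the lists for Barrington's nucleus, isthmus, parabrachial region, caudal Hox, V2a, hypothalamus, and monoamine or glycine neurons. Members carry Crh, Nr4a2, Esr1, Slc17a6, Meis2 and Lhx9 in all 3 libraries, and the Hox and V2a genes shown lie at or under 2.31 CPM.

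Transmitter genes were those of glutamate. Beside Slc17a6 above, Slc17a7, the vesicular glutamate transporter of cortical neurons, was at 20.8 ± 11.6 CPM against 104 CPM in cortical nuclei, and Slc6a5, the glycine transporter, had no UMI in 265 members, where 3 counts would be 0.725 CPM, against 4.16 ± 2.54 CPM in other non-cortical nuclei, at least 5.44-fold lower. That call was lost without replicate 3 and without the library block (adjusted p = 0.097 and 0.062). Gad2, an enzyme of GABA synthesis, was at 1.73 ± 1.57 CPM. Of 30 neuropeptide genes tested, 2 were higher, Spx and Crh, and 5 were lower, among them Cartpt, at 3.79 ± 1.46 CPM against 16.5 ± 11.9 CPM (-2.16 ± 0.31, adjusted p = 1.3e-04, but 0.28 without the library block). The median log2 fold change of this list was -1.03, and -0.72 with 5 genes without a UMI at the bound of 3 counts. Over all genes 0.998% were called higher and 4.42% lower.

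Counts of called receptors are to be read beside the 0.998% called higher and 4.42% called lower over all genes. Of 25 peptide receptors tested, Calcr, the calcitonin receptor, was the only 1 higher, at 25.2, 44.9 and 34.6 CPM against 9.44, 12.9 and 15.0 CPM (1.62 ± 0.25, adjusted p = 2.5e-04), and 5 were lower. With Ebf1 at 1600 CPM or more its fold change was 0.26 and the call was lost. Of 28 monoamine and acetylcholine receptors tested, 3 were higher, Drd1, Chrna5 and Hrh1, and 3 lower. These 3 rested on 14, 18 and 59 UMIs, and each lost its call without replicate 2, Drd1 and Chrna5 also without replicate 3. Htr2c, a serotonin receptor, was at 55.1 ± 21.9 CPM against 557 ± 49.9 CPM (-3.27 ± 0.16, adjusted p = 2.9e-10), with no overlap between libraries. Of 15 steroid and metabolic hormone receptors, Rorb and Esr1 were higher, Rorb at 98.4 ± 29.9 CPM against 32.3 ± 4.94 CPM (1.61 ± 0.12). Lower were Esr2, the oestrogen receptor beta, with 2 UMIs in the members (a ratio of 12.9, 3.55 to 107), Prlr, the prolactin receptor, at 5.68 ± 1.65 CPM against 19.3 ± 1.44 CPM, and Ghr, the growth hormone receptor, at 38.7 ± 7.46 CPM against 84.3 ± 1.82 CPM (-1.14 ± 0.14). The calls of Esr2 and Ghr were lost without replicate 2, and that of Prlr with Ebf1 at 1600 CPM or more (adjusted p = 0.051). Erbb4, the neuregulin receptor, was at 870, 1241 and 1210 CPM against 366, 273 and 293 CPM (1.93 ± 0.15, adjusted p = 9.97e-08; it overlaps Gm16076), and Met, the receptor of hepatocyte growth factor, at 45.9 ± 3.44 CPM against 17.2 ± 4.55 CPM (1.65 ± 0.19). They were 2 of 3 higher among 18 growth factor receptors tested, and 1 was lower.

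Of 58 regional and temporal factors tested, 6 were higher, Irx2, Lhx9, Nr4a2, Lhx2, Runx1t1 and Onecut3, and 24 were lower, with a median log2 fold change of -1.18. The shares over all genes were 0.998% higher and 4.42% lower. Runx1t1, a corepressor, was at 339 ± 62.4 CPM against 141 ± 14.8 CPM (1.29 ± 0.09), and Onecut3, a cut homeodomain factor, at 18.5 ± 1.78 CPM against 7.61 ± 1.83 CPM (1.26 ± 0.27), a call lost without replicate 3, with Ebf1 at 1600 CPM or more, and where Prdm6 and Pde11a each had a UMI. Zfhx3, a homeodomain factor, was at 54.7, 61.4 and 106 CPM against 488, 417 and 473 CPM (-2.52 ± 0.13, adjusted p = 9.8e-10). Within the Ebf family, Ebf3 was at 47.2 ± 10.1 CPM against 25.2 ± 2.41 CPM (1.05 ± 0.15), a fold change that was 0.92 without replicate 2 and 0.94 with the Nfib and Tox limit at 400 CPM, both under the limit for a call, and Ebf2 had 2 UMIs in the members against 6.03 ± 2.69 CPM, a ratio of 12.1 (3.33 to 101), and lost its call without replicate 3.

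Channel, signalling and guidance lists held genes called in both directions, to be read beside the 5.41% called over all genes. Of 29 potassium channel genes 3 were higher and 3 lower, and Kcnb2, a delayed rectifier subunit, was at 1603 ± 104 CPM against 790 ± 27.5 CPM (1.08 ± 0.06). Its call was lost with the Nfib and Tox limit at 400 CPM, where the log2 fold change was just under 1. Of 33 sodium, calcium, HCN and TRP channel genes 1 was higher, Trpm3, at 679 ± 34.1 CPM against 282 ± 27.6 CPM (1.34 ± 0.07), and 5 were lower. Of 25 glutamate receptor genes tested, Grik3, a kainate receptor subunit, was the only 1 lower, at 13.1 ± 3.38 CPM against 65.0 ± 7.99 CPM (-2.18 ± 0.17). Of 29 genes of cyclic nucleotide signalling, which leave out Pde11a, Prkg1, a cGMP-dependent kinase, was higher, at 1194 ± 142 CPM against 543 ± 61.7 CPM (1.23 ± 0.13), and 4 phosphodiesterases were lower. Of 34 axon guidance receptors and ligands 2 were higher, Epha3 and Epha5, and 7 lower, among them Epha4 at 9.32 ± 2.23 CPM against 49.8 ± 0.479 CPM (-2.25 ± 0.17). None of the 14 genes of large projection neurons was called, at a median of -0.28.

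Single nuclei carried these genes unevenly. With every nucleus thinned to 4000 UMIs, which left out 6 of 265 members, Dach1 had a UMI in 93.8% ± 4.05 of members (SD, n = 3) against 35.7% of other non-cortical nuclei. Spx had a UMI in 35.0% ± 9.19 of members, from 24.4% to 41.2%, against 3.47% of other non-cortical nuclei and 2.81% of cortical nuclei, a class not known for it. Unthinned, the shares of members were 36.0%, 66.9% and 60.8%. Crh had a UMI in 10.3% ± 3.21 of thinned members, against 1.83% of other non-cortical and 0.770% of cortical nuclei, and unthinned in 18.0%, 31.4% and 26.8%. Lhx9 had a UMI in 9.48% ± 2.85 of thinned members against 0.0891% of cortical nuclei. Slc17a6 had a UMI in 35.7% ± 2.24 of members and 32.2% ± 2.85 of other non-cortical nuclei.

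Spx levels ran from 0 to 2797, 1779 and 3390 CPM in single members of the 3 libraries, with medians of 0, 89.2 and 84.2 CPM, and 56 members had 5 or more Spx UMIs. Erbb4 ran from 0 to 5138, 3854 and 5101 CPM, with medians of 372, 749 and 714 CPM, and in thinned members it was found in 68.1% ± 6.57. Among thinned members, Crh had a UMI in 0%, 23.9% and 22.5% of those with Spx in replicates 1, 2 and 3, and in 8.82%, 5.63% and 3.51% of those without it. Replicate 1, with 11 Spx members and 3 Crh members, thus went against the other libraries. Lhx9 and Crh met in 1 thinned member. These shares are descriptions over nuclei that share a library, and deeper nuclei were thinned to the same number of UMIs.

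Members that passed on 1 gene of the pair differed in Erbb4. In members with Prdm6 and no Pde11a, Erbb4 stood at 263, 146 and 201 CPM in replicates 1, 2 and 3, and in those with Pde11a and no Prdm6 at 1491, 1483 and 1277 CPM. Members with both lay at 960, 1263 and 1421 CPM. The first class lay below the other 2 in every library, and it rests on 38 nuclei and 91 Erbb4 UMIs. Spx was at 148, 61.6 and 131 CPM in members with Prdm6 alone, at 417, 117 and 313 CPM in those with Pde11a alone, and at 69.1, 251 and 205 CPM in those with both. The gate genes define these classes, so no test is given.

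**Figure D4:**
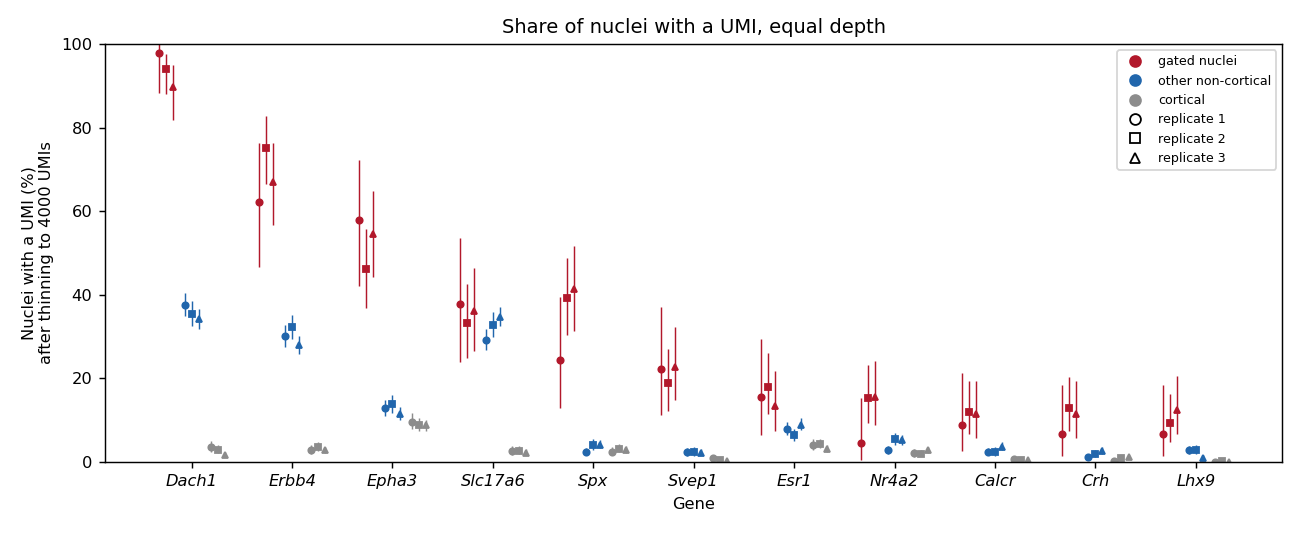
Share of nuclei with a UMI of each gene (x axis) in percent (y axis) after thinning each nucleus to 4000 UMIs, per replicate and group, with exact 95% binomial intervals as bars, which cover counting error only. Dach1 is found in nearly every member, Erbb4 in 62.2% to 75.2%, Spx in 24.4% to 41.2%, and Crh and Lhx9 in about 10%.

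The 250 members in the common cluster were divided again by genes outside the gate, which gave 7 subgroups of 62, 43, 43, 38, 25, 23 and 16 nuclei. Nuclei of every library were in each subgroup, with 4 to 10 from replicate 1. The levels below are pooled over libraries and describe subgroups that were formed from these genes, so none is tested. Crh was highest in subgroups 7 and 2, at 209 and 115 CPM, and was at 0 to 28.3 CPM in the rest. In subgroup 2 Crh was at 102, 104 and 140 CPM in replicates 1, 2 and 3, and in subgroup 7 at 70.2, 195 and 363 CPM. Calcr followed, at 93.6 CPM in subgroup 2 and 95.1 CPM in subgroup 7, and so did Esr1, at 120 and 119 CPM. Nr4a2, also of the list for Barrington's nucleus, did not follow. It was highest in subgroup 3, at 79.3 CPM, and stood at 46.8 and 28.5 CPM in subgroups 2 and 7. Subgroups 2 and 7 hold 59 of the 250 nuclei.

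Spx was highest in subgroup 3, at 682 CPM (952, 712 and 607 CPM by library), together with Erbb4 at 2985 CPM, and Crh was at 7.73 CPM there. Subgroup 5 lacked both peptides, with Spx at 4.84 CPM and Crh without a UMI, and carried Epha3 at 716 CPM and Thsd7b, a thrombospondin-repeat protein, at 2092 CPM. It was also unlike the others in the gate genes, with Pde11a at 33.9 CPM and Prdm6 at 237 CPM. Subgroup 7 differed from subgroup 2 in Erbb4, at 28.5 against 1265 CPM, and carried Bdnf, brain-derived neurotrophic factor, at 185 CPM and Chrm2, a muscarinic receptor, at 684 CPM. Lhx9, by contrast, was present in all 7 subgroups, at 20.3 to 53.2 CPM, and Slc17a6 at 94.7 to 148 CPM. Dach1 was also present in each, at 418 to 1241 CPM.

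**Figure D5:**
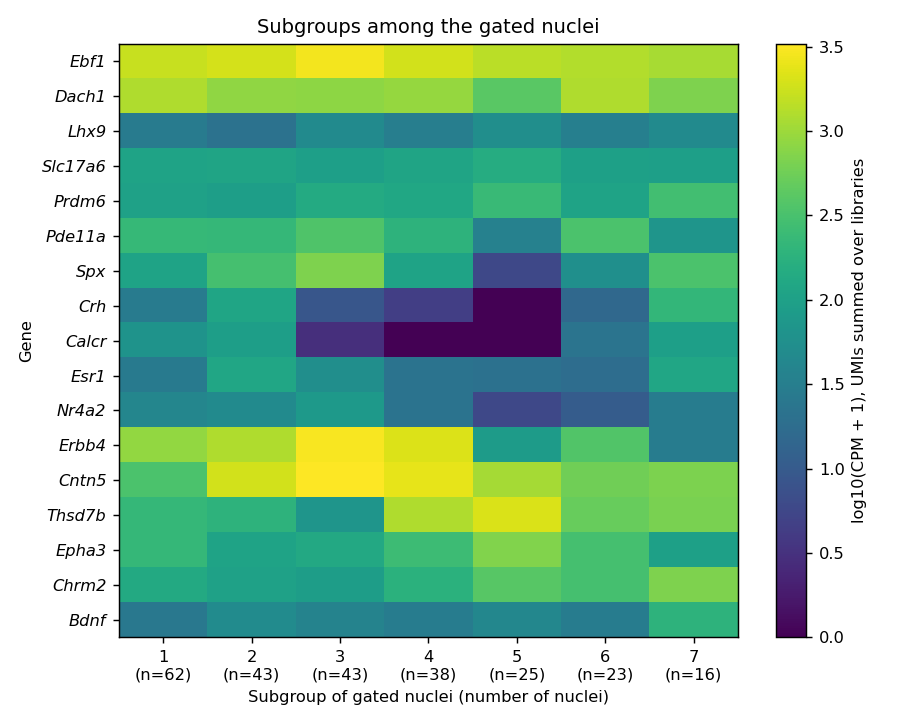
Levels of 17 genes (y axis) in the 7 subgroups of gated nuclei (x axis, number of nuclei in brackets) as log10 of CPM plus 1, with UMIs summed over libraries. Crh and Calcr are high in subgroups 2 and 7, Spx and Erbb4 in subgroup 3, and Lhx9 and Slc17a6 are present in all.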

How the data were processed

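Single-nucleus libraries of brain nuclei were used as deposited, as raw UMI counts. Cell Ranger on mm10 made them, with version 6.1.1 per the file headers and 7.0.1 per the submitters' processing notes. Whether introns or strand were used in counting is not given in the sources used here.

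Barcodes were kept from 1000 genes up and to 5% mitochondrial UMIs. The members, gene lists and named-gene rule were chosen with earlier results of these data known. Doublets were called with Scrublet (Scanpy 1.11.5, expected rate 6%) and kept, and removed as an alternative. Counts were summed per library and group and fitted with edgeR 4.0.16 (R 4.3.3), TMM normalisation, filterByExpr and library as a block, since groups of 1 library share it. The first fit used members and all other nuclei (2 residual degrees of freedom). The second added cortical nuclei as another group, with Nfib and Tox together at 800 CPM or more (4 residual degrees of freedom). Standard errors were derived from the fold change and the F statistic. The 3 gate genes were not tested. On simulated counts for the comparison with other non-cortical nuclei (18330 genes), 26.0% of genes changed by 1 on the log2 scale and 80.0% of those changed by 2 were called.

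Genes were named when called in 3 of 3 libraries in the same direction with 20 CPM or more in the higher group, the 12 highest and 6 or 8 lowest, without predicted genes, plus members of the lists. Leiden clustering (leidenalg 0.10.2) left out the gate genes. Promoters are RefSeq windows of GRCm38.p6. Alternatives were DESeq2 1.42.0, other normalisation, filters and gates, no replicate block, and leaving out each library. The library block rests on the labels: groups compared come from the same library. All 584 genes looked up matched GENCODE vM21, and 1 listed symbol was not in the files. Some genes are not reported here.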

Additional observations from a re-analysis of the deposited data

How the results depend on the processing

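Across 87 combinations of named gene and comparison, 1234 of 1283 values under 15 alternatives kept their direction and side of the threshold, 47 lost the call, 2 gained it and none reversed. The 2 gained calls were both Hcrt, lower than in other non-cortical nuclei. Against all other nuclei, leaving out each library gave 503 to 884 genes higher and 1137 to 1558 lower. Against other non-cortical nuclei it gave 159 to 186 higher and 501 to 688 lower. With no replicate block, 424 genes were lower than in other non-cortical nuclei, and 131 higher. With the Nfib and Tox limit at 400 CPM, 480 were lower. DESeq2 called 194 genes higher and 596 lower in that comparison, and 177 of its 194 were also among the 190. The member share averaged 2.29% to 3.49% without each library, 1.73% with Ebf1 at 1600 CPM or more, and 1.62% with Prdm6 and Pde11a at 4 UMIs and 200 CPM. Shares of members with a UMI were higher when not thinned, at 54.6% for Spx, 25.4% for Crh, 31.1% for Lhx9 and 66.7% for Slc17a6, because deeper nuclei give more UMIs. Restricting the members to their common cluster, or leaving that cluster's other nuclei out, gave 198 and 213 genes higher than in other non-cortical nuclei, both chosen after seeing the data. Replicate 1, with 475641 UMIs in its members, limits the weakly expressed genes most.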

Other observations

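Among the members, a few genes were carried almost wholly by 1 nucleus. In replicate 1 a member with 3309 UMIs held 90 of the 96 Ube2z UMIs of that library's members, and a member with 3179 UMIs held 97 of 99 for Ccdc162. Another nucleus, with 29469 UMIs, held 86 of 91 for Egfr, an epidermal growth factor receptor. In replicate 2, 1 member held 137 of 144 UMIs of Kcnk4, a potassium channel, another all 55 of Erbb3, and another 64 of 69 for Cln8. Between 1 and 5 kept nuclei of the library carried 20 or more UMIs of each of these genes. They were chosen after their values were seen, and none is among the named genes.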
